A study of Sus scrofa with 2 samples.

Results

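The miR-17/92 group comprised 9 miRNAs, which were miR-17, miR-18a, miR-19b, miR-20a and miR-92a of the miR-17/92 transcript, miR-106b, miR-93 and miR-25 of the miR-106b/25 transcript, and miR-92b. They were chosen by name, and a read was given to a miRNA when it was 18 to 26 nt long, held nt 2 to 18 of the mature form without a mismatch and began within 2 nt of its 5' end. They held 15006 of 11836160 reads of the control library (0.127%) and 17091 of 11982925 reads of the knockdown library (0.143%). Of their 9 stretches of nt 2 to 18, 4 held at least 100 reads, and these 4 are among 6758 such stretches in the series. Small RNA had been sequenced from pig oocytes matured in vitro for 42 h to metaphase II, the stage of a fertilisable egg. One library came from control oocytes, and the other from oocytes given siRNA against Dicer before maturation, while they were at the germinal vesicle stage. Dicer is the ribonuclease that cuts miRNA hairpins into mature duplexes. The labels do not say what the control oocytes received, how many oocytes were pooled or how far Dicer was lowered, and small RNA reads do not measure the Dicer transcript. Each group was a single library, which allows no test, and every difference below compares these libraries, not the conditions. The 95% intervals given below cover only the error of counting reads. They may be too narrow even for that, because reads copied by PCR without molecular identifiers are not independent molecules.

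These miRNAs are cut from polycistronic transcripts, in which a single primary RNA carries several hairpins. The miR-17/92 cluster is known for promoting proliferation and blocking apoptosis, and miR-106b, miR-93 and miR-25 are known from an intron of MCM7, a gene for a subunit of the replicative helicase. A miRNA finds its targets mainly through its seed, the bases at nt 2 to 8, so that miRNAs with a common seed are thought to share targets even when they come from different transcripts. In the pig RefSeq annotation MIR17, MIR18A, MIR19A, MIR20A, MIR19B-1 and MIR92A-1 are neighbours in that order, with GPC5 next to them. MIR363-1, MIR92A-2, MIR19B-2, MIR20B-1, MIR18B and MIR106A form another run, and MIR92B lies beside MUC1. Mature miR-92a and miR-19b can thus come from either run, and their reads cannot be given to one transcript. No pig run is given here for miR-106b, miR-93 and miR-25, so their common transcript rests on background knowledge.

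The most abundant read of each miRNA in the deposited tables is shown, so that the seed groups and the few bases that separate their members can be seen. Sequences run 5' to 3' in DNA letters, and capitals mark the seed.
miR-92a-3p: tATTGCACttgtcccggcctgtaa
miR-92b-3p: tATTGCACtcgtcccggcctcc
miR-25-3p: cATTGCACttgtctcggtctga
miR-17-5p: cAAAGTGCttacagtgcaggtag
miR-20a-5p: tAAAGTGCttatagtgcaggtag
miR-93-5p: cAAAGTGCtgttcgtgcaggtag
miR-106b-5p: tAAAGTGCtgacagtgcagatagt
miR-18a-5p: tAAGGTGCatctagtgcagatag
miR-19b-3p: tGTGCAAAtccatgcaaaactg

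The 9 miRNAs fell into 4 seed groups. miR-92a, miR-92b and miR-25 had the seed ATTGCAC, although they came from different transcripts. Over the first 22 nt, miR-92a and miR-92b differed by T10C, G21C and T22C, and miR-92a and miR-25 by T1C, C14T, C18T and T22A, with positions counted from 1 at the 5' end and the base of miR-92a written first. miR-17, miR-20a, miR-93 and miR-106b had the seed AAAGTGC, and miR-17 and miR-20a differed by C1T and C12T. miR-18a and miR-19b each had a seed of their own among the 9.

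miR-92a was by far the most abundant of them, and its level was nearly the same in both libraries. It had 12344 reads in the control library, or 1043 RPM (reads scaled to the library's total; exact Poisson interval 1025 to 1061), and 11404 reads or 952 RPM (934 to 969) in the knockdown library. Its ratio of knockdown to control was 0.913 (exact conditional interval 0.890 to 0.936). Both other miRNAs with its seed had more reads after Dicer siRNA. For miR-92b, 1782 reads (151 RPM, 144 to 158) stood against 3900 (325 RPM, 315 to 336), and the ratio was 2.16 (2.04 to 2.29). For miR-25, 569 reads (48.1 RPM, 44.2 to 52.2) stood against 1532 (128 RPM, 122 to 134), and the ratio was 2.66 (2.41 to 2.93).

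The 4 miRNAs with the seed AAAGTGC were scarce, and none had a ratio above 1. miR-93 had 196 and 182 reads (16.6 and 15.2 RPM), and the interval of its ratio of 0.917 included 1 (0.745 to 1.13). miR-17 had 58 and 38 reads (4.90 and 3.17 RPM) and a ratio of 0.647 (0.418 to 0.991). miR-20a, which is close to miR-17 in sequence and lies in the same cluster, had 23 and 5 reads (1.94 and 0.417 RPM) and was 4.66-fold lower after Dicer siRNA (1.73 to 15.7). The wide interval reflects the low number of reads. miR-106b-5p had 3 and 1 reads, which is at or under the floor of 3 reads, so no fold is given.

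miR-19b had 29 reads in each library (2.45 and 2.42 RPM) and a ratio of 0.988 (0.570 to 1.71). miR-18a had 2 reads in the control and 0 in the knockdown library. By the floor of 3 reads a count of 0 allows up to 0.250 RPM there, and the exact Poisson interval reaches 0.308 RPM. In order of level, miR-92a, miR-92b, miR-25, miR-93 and the rest were separated by more than counting error in each library. Below miR-93, the intervals of miR-17 and miR-19b did not overlap in control oocytes (3.72 to 6.33 RPM and 1.64 to 3.52 RPM) but did after Dicer siRNA (2.24 to 4.35 RPM and 1.62 to 3.48 RPM). Those of miR-19b and miR-20a overlapped in control oocytes, where that of miR-20a was 1.23 to 2.92 RPM, but not after Dicer siRNA (1.62 to 3.48 RPM and 0.135 to 0.974 RPM). Adapter ligation is known to favour some end sequences over others, so an order of reads between miRNAs need not be an order of molecules; its part was not tested.

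**Figure D1:**
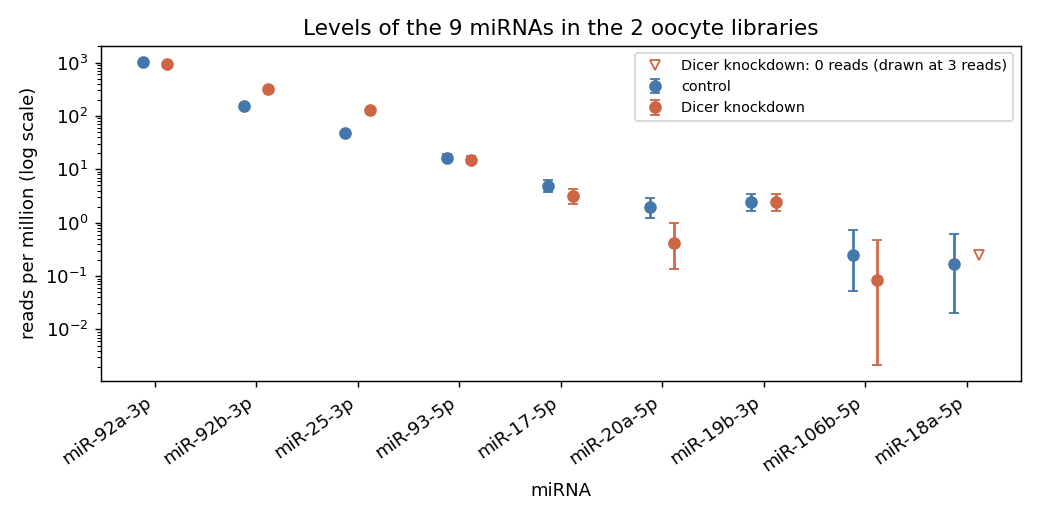
Level in RPM (log scale) of each of the 9 miRNAs in the control and the knockdown library, 1 library each, with exact Poisson 95% intervals. miR-92a is highest in both libraries at 1043 and 952 RPM, miR-92b and miR-25 are higher in the knockdown library, and a triangle marks the 0 reads of miR-18a, drawn at the level of 3 reads.

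Of the 4 members with 100 or more reads, 2 had a ratio of at least 2 and 0 had a ratio of at most 0.5. Among 6754 other read groups of that size, whose reads share nt 2 to 18, 7.92% passed 2-fold, 3.51% upward and 4.41% downward. The median log2 ratio was 0.49 for the 4 members and -0.11 for the other groups. Other miRNAs were not analysed here, so the counts say nothing about how miRNAs as a class differed. miR-92b passed 2-fold by a small margin, and its ratio was 1.99 when nt 2 to 20 had to match and 1.91 for its most abundant form alone. With each distinct sequence counted once, in place of its reads, the ratio was 0.999 for miR-92b and 1.53 for miR-25, and 0 of the 4 members passed 2-fold.

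**Figure D2:**
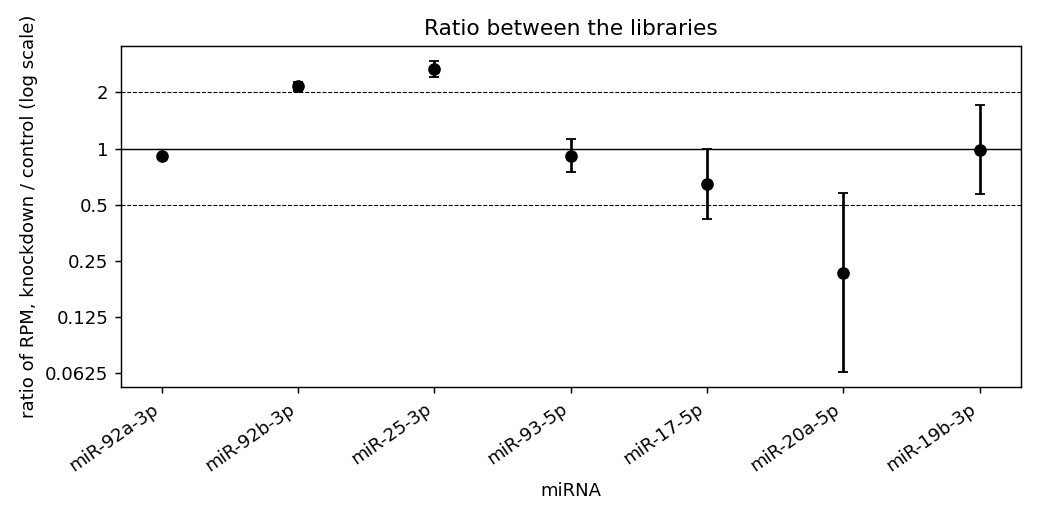
Ratio of RPM, knockdown over control (log scale), for the 7 members with at least 10 reads, with exact conditional 95% intervals. Dashed lines mark 2-fold in either direction, and miR-92b and miR-25 lie above the upper line at 2.16 and 2.66, while miR-92a and miR-93 lie near 1.

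Reads with very high GC content were more frequent in the knockdown library. Reads with at least 80% GC numbered 7208 and 74350, and their ratio of knockdown to control was 10.2 (9.95 to 10.4). Over nt 2 to 18, miR-92b had 64.7% GC, miR-92a 58.8%, and miR-25 and miR-93 47.1% each. Among the 508 other read groups with at least 60% GC over these bases, 19.3% passed 2-fold, 10.6% upward and 8.66% downward. Of the members past 2-fold, miR-92b had more GC than miR-92a over these bases and miR-25 less. Over the whole most abundant form, miR-92b had 63.6%, and miR-92a and miR-25 had 50% each. The part of GC content in the ratios was not tested.

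Within the ATTGCAC seed the make-up differed between the libraries, while the total differed little. The 3 miRNAs with this seed had 14695 and 16836 reads in all, a ratio of 1.13 (1.11 to 1.16). miR-92a made up 84.0% of them in the control (exact binomial interval 83.4 to 84.6%) and 67.7% (67.0 to 68.4%) after Dicer siRNA. The share of miR-92b went from 12.1% (11.6 to 12.7%) to 23.2% (22.5 to 23.8%), and that of miR-25 from 3.87% to 9.10% (8.67 to 9.54%). For each read of miR-92b there were 6.93 reads of miR-92a in the control and 2.92 in the knockdown library. Relative to miR-92a, miR-92b was thus 2.37-fold higher (2.23 to 2.52) and miR-25 2.91-fold higher (2.64 to 3.23). miR-25 and miR-92b differed less from each other, by 1.23-fold (1.10 to 1.38). Of all reads of 20 to 24 nt with this seed at nt 2 to 8, these miRNAs made up 99.5% and 99.2%.

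Since miR-92a and miR-92b differ by a single base in the matched stretch, T10C, a misread miR-92a could be taken for miR-92b. Past nt 18 their cores differ only at nt 21 and 22, so the 3' end can be compared in reads of at least 22 nt and not in the 18-nt to 20-nt forms. Among such longer reads with the miR-92b stretch that began at the 5' end, 2 of 1399 and 4 of 1955 had the bases of the miR-92a core at nt 19 to 22 (0.143% and 0.205%). Those of the miR-92b core were in 645 and 1130 of them (46.1% and 57.8%), and the rest had other bases there. Of the reads with the miR-92a stretch, 98.2% and 97.9% had the miR-92a bases and 0 had those of miR-92b. Of the substitutions of miR-92a at nt 2 to 18 that lead to no other member, 47 kinds were read, each at most 19 times in both libraries together. In sum they came to 81 and 113 reads, or 0.656% and 0.991% of the exact reads.

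The AAAGTGC seed had 280 and 226 reads in all, a ratio of 0.797 (0.666 to 0.953). The shares of miR-93 were 70.0% (64.3 to 75.3%) and 80.5% (74.8 to 85.5%), and those of miR-17 20.7% (16.1 to 25.9%) and 16.8% (12.2 to 22.3%), with overlapping intervals for each. The share of miR-20a was 8.21% (5.28 to 12.1%) and 2.21% (0.722 to 5.09%), and these intervals did not overlap. Relative to miR-93, miR-20a was 4.27-fold lower after Dicer siRNA (1.54 to 14.6), whereas the ratio of miR-93 to miR-17 differed by 1.42-fold with an interval that included 1 (0.878 to 2.30). The stretch of nt 2 to 18 of miR-17 is shared with miR-106a, which is known to have another first base. All reads with this stretch that began at the 5' end, 57 and 35 in number, had the C of miR-17 there.

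In the miR-106b/25 transcript, taken here from background knowledge, miR-25 and miR-93 did not keep one ratio. miR-25 had a ratio of 2.66 and miR-93 one of 0.917, and reads of miR-25 per read of miR-93 went from 2.90 to 8.42, a 2.90-fold difference (2.30 to 3.65). In the miR-17/92 transcript, miR-17 and miR-20a are the pair with at least 10 reads each and no copy of their own names in the other run. In both libraries together they had only 96 and 28 reads. miR-20a per read of miR-17 changed by a factor of 0.332, with an interval of 0.0913 to 1.01 that included 1. miR-92a and miR-19b may also hold reads from the other run, so comparisons with them are not within one transcript alone. There were 213 reads of miR-92a per read of miR-17 in the control and 300.1 after Dicer siRNA, and the interval for the change in miR-17 over miR-92a, 0.709, included 1 (0.458 to 1.09). The interval for miR-19b over miR-92a, 1.08, also included 1 (0.624 to 1.88). miR-20a was 4.25-fold lower relative to miR-92a (1.58 to 14.3) and 4.60-fold lower relative to miR-19b (1.42 to 17.4), on 28 reads of miR-20a in all. Across the pairs, 12 changes were computed.

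miR-19a is the nearest relative of miR-19b, from which it differs by C11T. It had 1 and 7 reads. The control count of miR-19a was under the floor of 3 reads, so no fold is given. The interval of its ratio, 0.888 to 312, included 1. The opposite arms of the hairpins, and miR-18b, miR-20b, miR-106a and miR-363 beyond the first base given above, were not analysed here.

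The forms in which a miRNA was read differed between the libraries, in the same order in all 3 miRNAs with the ATTGCAC seed. Each miRNA was divided at its core, the most abundant form of at most 23 nt, into shorter forms, forms of core length and longer forms, over reads that began at the 5' end. For miR-92a, with a core of 22 nt, the ratios of these classes were 2.01 (1.71 to 2.37), 1.32 (1.26 to 1.38) and 0.736 (0.713 to 0.760). For miR-92b they were 5.04 (4.51 to 5.64), 1.59 (1.46 to 1.72) and 0.973 (0.854 to 1.11), and for miR-25 4.76 (3.93 to 5.79), 2.14 (1.90 to 2.42) and 1.10 (0.743 to 1.64). Longer forms of miR-92b, taken as a class, were thus at nearly equal levels, and for miR-25 the class had only 51 and 57 reads. By length, over all counted starts, miR-92b had a ratio of 1.33 (1.10 to 1.62) at 23 nt. Its ratio was 0.825 (0.658 to 1.03) at 24 nt, 0.701 (0.496 to 0.984) at 25 nt and 0.395 (0.151 to 0.936) at 26 nt. In both miRNAs the shorter and core-length classes had more reads in the knockdown library.

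miR-93 had another pattern. Its shorter forms had a ratio of 1.004 (0.689 to 1.46), forms of its core length of 23 nt 0.820 (0.605 to 1.11) and longer forms 1.07 (0.663 to 1.73), and all 3 intervals overlapped. The log2 ratio of shorter forms minus that of longer forms was 1.45 for miR-92a, 2.37 for miR-92b, 2.10 for miR-25 and -0.09 for miR-93. Among 2581 other read groups with at least 20 reads in each class the median of this difference was -0.09, and 90% of them lay between -1.46 and 1.14. These groups are not limited to miRNAs, and their cores were also capped at 23 nt. No miRNA outside the members was analysed for this difference, so whether it is particular to the ATTGCAC seed was not tested. Reads other than the members differed little by length, with ratios of 1.26 at 18 nt, 1.002 at 19 nt, 0.984 at 20 nt and 0.928 at 22 nt.

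**Figure D3:**
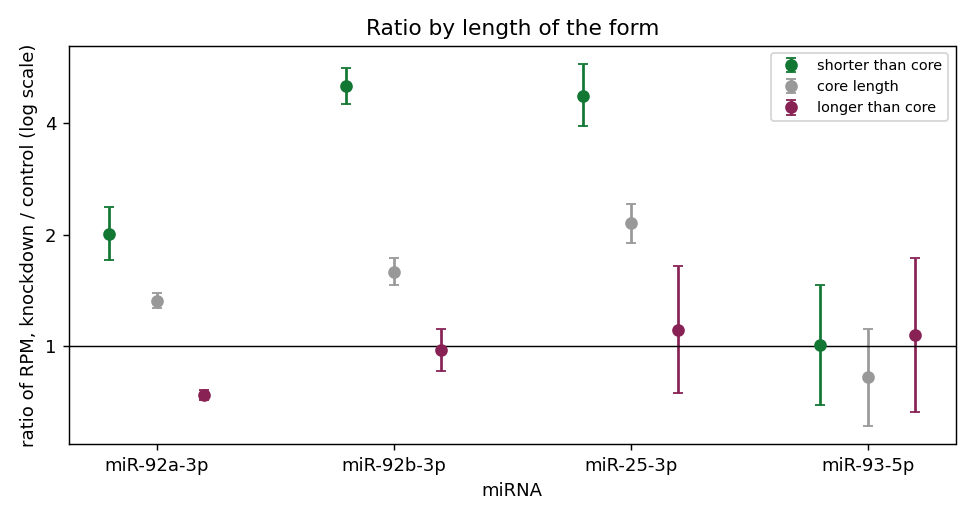
Ratio of RPM, knockdown over control (log scale), for forms shorter than the core, of core length and longer than the core in the 4 members with at least 100 reads, with exact conditional 95% intervals. In miR-92a, miR-92b and miR-25 the ratio is highest for shorter forms (2.01, 5.04 and 4.76) and lowest for longer ones, and in miR-93 the intervals overlap.

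In miR-92b the shortest forms had few reads in the control library. The sequences behind this difference are shown, from the core to the form of 18 nt.
miR-92b core, 22 nt: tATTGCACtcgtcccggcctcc
miR-92b, 21 nt: tATTGCACtcgtcccggcctc
miR-92b, 20 nt: tATTGCACtcgtcccggcct
miR-92b, 19 nt: tATTGCACtcgtcccggcc
miR-92b, 18 nt: tATTGCACtcgtcccggc
The core had 457 and 884 reads and a ratio of 1.91 (1.70 to 2.14). The form of 21 nt had 96 and 511 (5.26, 4.22 to 6.61), and that of 20 nt 233 and 936 (3.97, 3.43 to 4.60). The form of 19 nt had 14 and 293 (20.7, 12.1 to 38.3), and that of 18 nt 1 and 122. The control count of the 18-nt form was under the floor of 3 reads, so no fold is given (interval of the ratio 21.2 to 4798). In the knockdown library the 20-nt form was the most abundant sequence of miR-92b, ahead of the core. Forms shorter than the core held 21.2% of the miR-92b reads in the control and 49.6% in the knockdown library.

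The 20-nt form was the most abundant short form of miR-25, and short forms of miR-92a were few.
miR-25 core, 22 nt: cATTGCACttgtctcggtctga
miR-25, 20 nt: cATTGCACttgtctcggtct
miR-92a, 19 nt: tATTGCACttgtcccggcc
The miR-25 core had 383 and 819 reads (2.11, 1.87 to 2.39) and the 20-nt form 104 and 528 (5.01, 4.06 to 6.25), and this form went from 18.3% to 34.5% of the miR-25 reads. The form between them, of 21 nt, had 16 and 36 (2.22, 1.20 to 4.29). The 19-nt form of miR-25 had 6 and 53 reads (8.73, 3.75 to 24.8). The 19-nt form of miR-92a had 23 and 66 reads (2.83, 1.74 to 4.77), or 0.186% and 0.579% of its reads.

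**Figure D4:**
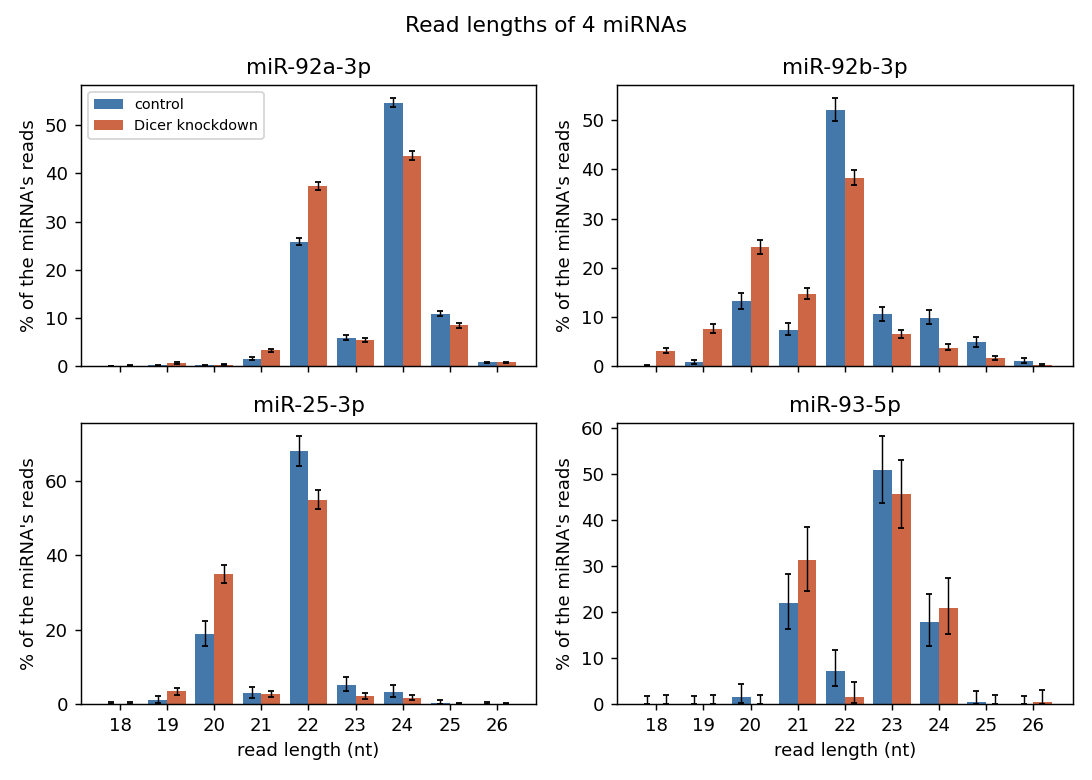
Share of reads (%) at each read length from 18 to 26 nt in the control and the knockdown library for miR-92a, miR-92b, miR-25 and miR-93, with exact binomial 95% intervals. miR-92a peaks at 24 nt with 54.7% in the control and 43.7% in the knockdown library, and miR-92b and miR-25 have a larger share of 20-nt reads in the knockdown library.

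At the other end of the length range miR-92a stood apart from miR-92b and miR-25, since most of its reads were longer than 22 nt. Most reads of miR-93 and miR-17 were longer than 22 nt as well. The longer forms of miR-92a are shown beside its core.
miR-92a core, 22 nt: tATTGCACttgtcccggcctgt
miR-92a, AA added: tATTGCACttgtcccggcctgtaa
miR-92a, AG added: tATTGCACttgtcccggcctgtag
Forms longer than the core held 72.4% of miR-92a reads (71.6 to 73.1%) in the control and 58.5% (57.6 to 59.4%) after Dicer siRNA. Among 6635 other read groups the median share of reads longer than the core was 61.1% and 62.5%. The core was at most 23 nt in every group, so reads of groups that are naturally longer fall in this class by that rule. The median therefore does not measure how unusual the share of miR-92a is. With 4993 reads against 3028 of the core, the AA form led in the control library, and with 3624 against 4094 it came second in the knockdown library. Its ratio was 0.717 (0.687 to 0.748), and that of the core 1.34 (1.27 to 1.40). The AG form had 1056 and 695 reads (0.650, 0.590 to 0.716), and the form with a single added A 606 and 502 (0.818, 0.726 to 0.923).

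Of the miR-92a reads that extended the core, 97.8% and 97.0% had A as the first added base, so extended reads were fewer after Dicer siRNA but of nearly the same kind. For miR-92b this share was 84.0% and 61.8%, on 188 and 246 reads, and for miR-25 86.0% and 75.9%, on 50 and 54. For miR-93 it was 37.5% and 34.2%, with T more frequent. Among 4990 other read groups with at least 20 extended reads in each library the median share was 1.60% and 1.36%. In those groups too the added base may be the next encoded one, so the median does not measure how unusual the shares of the members are. The third most abundant sequence of miR-92b ended in A in place of the last base of the core, tATTGCACtcgtcccggcctca, and had 294 and 335 reads with a ratio whose interval included 1 (1.13, 0.959 to 1.32). miR-92b also had a form with T added to its core, tATTGCACtcgtcccggcctcct, with 2 and 62 reads. The control count of that form was under the floor of 3 reads, so no fold is given (interval of the ratio 8.13 to 258). Another form ended in T in place of the last base of the core, tATTGCACtcgtcccggcctct, and had 21 and 128 reads (6.02, 3.78 to 10.1). Hairpin sequences were not used here, so whether an added base was encoded or joined on later was not determined.

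Among the reads counted, the 5' ends hardly varied. A read was counted only when it held the whole matched stretch and began close to the 5' end. Reads that began further inside the miRNA were thus left out by that rule, and their number was not tested. In the control library 99.6% of miR-92a, 99.7% of miR-92b and 100% of miR-25 reads began exactly at the 5' end, and 99.4%, 99.5% and 99.5% did so in the knockdown library. Within that rule, the seed was thus the same in nearly every read counted, whatever the length of the form. Of miR-17, 1 of 58 and 3 of 38 reads began 1 nt upstream.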

How the data were processed

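The authors deposited 1 table per library, with a raw read count for each distinct sequence and no normalization. The labels' protocols describe adapter ligation, reverse transcription, PCR and Illumina sequencing. Only the tool name Bowtie2 comes from the submitters' processing notes, and aligner version, genome build and trimming are not given in the sources used here.

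No miRNA reference sequences were used. Reads of 20 to 24 nt with a member's seed at nt 2 to 8 were grouped by nt 2 to 18, and groups were named by the seed, in the 4 versions capitalised in the report, and by single bases at nt 10, 11, 12 or 14 that are known to tell members apart. The group with most reads served as the mature form; miR-18a was the group most like miR-17 as read. Names therefore rest on background knowledge of those bases, and all printed sequences were read in the tables. The marker miRNAs of granulosa, stromal and blood cells, the other arms and the background of all annotated miRNAs had been planned and were not analysed here, and read groups replaced the last. This way of naming replaced an earlier one that used longer remembered stretches and gave the same member counts. Members, classes of forms and comparisons were chosen with earlier results of these data known.

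RPM, exact 95% Poisson, binomial and conditional intervals and a floor of 3 reads (0.253 and 0.250 RPM) were computed from the counts; log2 ratios had 0.5 read added. The 2-fold rule was applied from 100 reads. Named forms were the 3 most abundant of each member and those of at least 50 reads past 2-fold; the form of miR-92a with a single added A was chosen after its values were seen. Matching and intervals were tested on simulated data. Python 3.11.15, numpy 2.4.6, pandas 2.3.3, scipy 1.17.1 and matplotlib 3.10.9 were used.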

Additional observations from a re-analysis of the deposited data

How the results depend on the processing

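Of the 4 members with 100 or more reads, 2 passed 2-fold upward. The count was 1 with nt 2 to 20 matched, 1 with the most abundant form alone and 0 with distinct sequences counted once, where the ratio of miR-92b was 0.999 and that of miR-25 1.53. For the 9 members together the ratio was 1.12, and 1.09, 0.899 and 1.07 in these settings in the same order, so its direction turned with the most abundant form alone. It was 1.17 relative to the median ratio of all sequences of at least 100 reads. Over 9 alternatives miR-25 ran from 1.53 to 2.77, miR-92b from 0.999 to 2.25, miR-92a from 0.717 to 1.28, miR-93 from 0.815 to 0.956, miR-20a from 0.179 to 0.522 and miR-19b from 0.348 to 1.06. The share of miR-92a in its seed was 83.0% in the control library with 20 to 24 nt and 69.7% in the knockdown library with nt 2 to 20. The share of read groups past 2-fold was 10.2% from 50 reads and 26.8% from 10 reads. The cause of these shifts was not tested.

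A match to the full annotated mature form, scaling to annotated miRNAs and the settings of the arm share were not run, because no such sequences were used; the most abundant form alone was added after the data had been seen. No paired analysis was possible because each group was 1 library. Depth limits miR-17, miR-18a, miR-19b, miR-20a and miR-106b, which had under 100 reads each.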
